A study of Mus musculus with 8 samples.

Results

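The transcripts of 9 Hedgehog pathway genes (Gli1, Gli2, Gli3, Ptch1, Boc, Cdon, Smo, Sufu and Hhip) were described in the retina of mice with and without Lpcat1, the acyltransferase that adds palmitate to lysophosphatidylcholine. Probes were taken by their RefSeq transcript, which gave 13 of the 55681 probes of the array and 9 of the 20018 genes that could be named. The set was chosen by the difference of Gli1 between the genotypes, which was among the largest decreases in the knockout, so this difference is given as a description without a test. The other 8 genes entered by their place in the pathway, but with earlier results of these data known. The adjusted p given for them comes from 1 fit over all tested probes. Total RNA of the whole retina was taken at 2 weeks of age from 4 Lpcat1 wildtype (WT) and 4 Lpcat1 knockout (KO) samples of C57BL/6 mice. Each sample was labelled with Cy3 and hybridised to 1 array. The KO mice lack the gene in the whole body and came from C57BL6/N mice crossed with C57BL6/J to remove the rd8 mutation of Crb1, and mice homozygous for rd8 were not used. Nothing in the labels says whether a sample was 1 animal, so the p-values measure only the spread between these samples.

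Hedgehog proteins are secreted ligands that bind Patched 1 (Ptch1) together with the co-receptors Boc and Cdon, and this releases Smoothened (Smo) to act in the primary cilium. Active Smo frees the Gli transcription factors from Sufu, and Gli1, Ptch1 and Hhip are themselves transcribed in response, which makes them the usual readouts of the pathway. In the developing retina, Sonic hedgehog from ganglion cells acts on progenitors and, in the optic nerve, on astrocytes.

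All 8 arrays lay on 1 slide, with the WT arrays in one row and the KO arrays in the other, so row and genotype cannot be told apart. The signal at the 75th percentile was 638.4 to 737.8, and 33117 to 36373 probes were well above background per array, with means of 35772.8 ± 650.4 in WT and 34277.5 ± 1170.2 in KO (SD, n = 4; two-sided exact permutation test, p = 0.114, where 0.0286 is the smallest p possible). The single Lpcat1 probe changed by -0.46 on the log2 scale (SE 0.04, limma adjusted p = 0.0036). A hybridisation signal thus remained in KO at this probe, whose position relative to the deletion was not settled. The 33975 tested probes had signals well above background in every array of one genotype or of both. Calls required an adjusted p under 0.05 together with more than a 1.2-fold change. By this rule 2.92% of tested probes were called (1.54% lower and 1.39% higher in KO, 522 and 471 probes), and 5.5% passed on the adjusted p alone. When the scaling used the percentile of the detected probes only, 373 were lower and 564 higher. Levels below are log2 signals minus the 75th percentile of the same array, and differences are KO minus WT on that scale. The median difference over all tested probes was -0.04. Levels of different probes are not comparable with each other, since each probe has its own hybridisation efficiency.

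Of the 13 probes, 10 passed the filter and covered 8 of the 9 genes. The 3 that did not were the single Gli2 probe and the second probes of Sufu and Hhip. Gli1 was the only one of the 10 tested probes that was called, and since its value chose the set, nothing is read from that. Of the other 9 tested probes, covering 7 genes, 0 were called by limma, against 2.92% of all tested probes. At an unadjusted p under 0.05, there were 2 of these 9 (Boc and the brighter Cdon probe), where 23.8% of all tested probes reached that level. Limma with a trend and robust eBayes or with array weights called Boc. The 9 differences ran from -0.13 to 0.27, with a median of -0.01, and 4 were above and 5 below 0. Their SD within a genotype was 0.02 to 0.35, where the median SD over all tested probes was 0.08 in WT and 0.09 in KO. None of the spots of the 13 probes was marked as an outlier (0 spots), so every value rests on all 8 arrays.

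**Figure D1:**
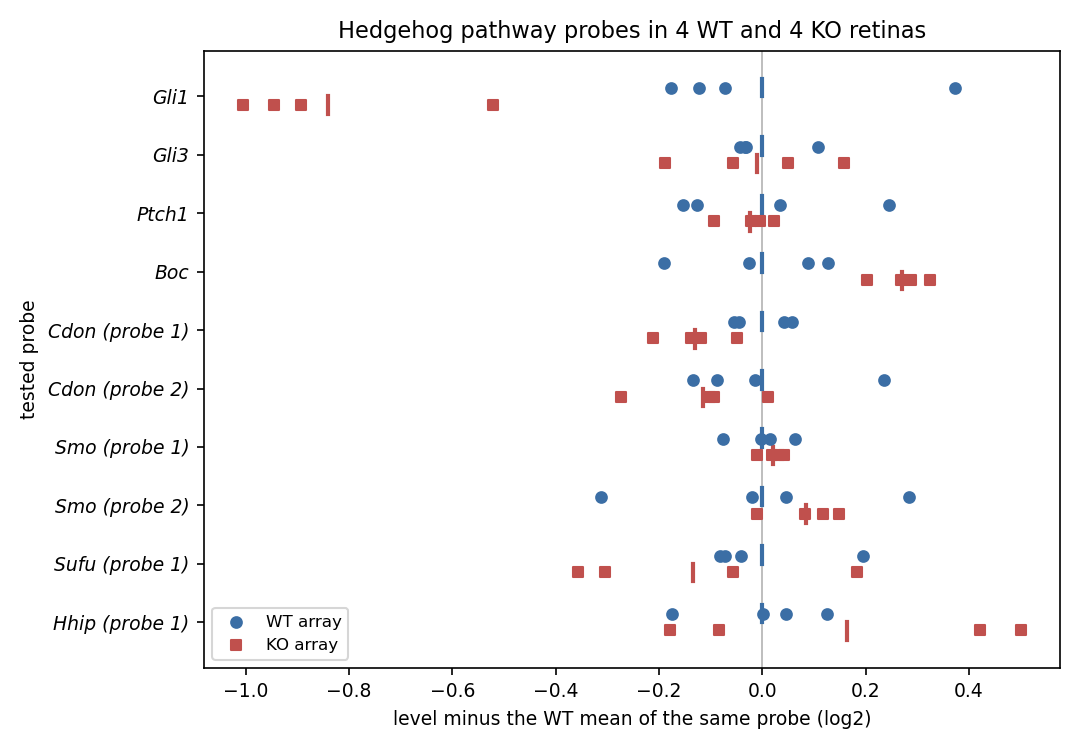
Level of the 10 tested probes in each array, on the log2 scale, minus the WT mean of the same probe, with circles for WT arrays, squares for KO arrays and short vertical lines for the mean of 4 arrays. For Gli1 all KO arrays lie below all WT arrays and for Boc all lie above, while the genotypes overlap in the other 8 probes.

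Among the transcription factors, Gli1 is the activator whose own transcription depends on the pathway. Its processed signal, which is linear and background-subtracted, was 47.4, 52.5, 47.2 and 70.4 in the WT arrays and 35.1, 30.6, 25.6 and 25.96 in the KO arrays. The scanner software gave each of these spots an error of 5.93 to 8.73, so WT signals were 6.96 to 8.06 times and KO signals 3.91 to 5.92 times their own error. All 4 KO values lay below all 4 WT values, as in 11.4% of all tested probes, and WT replicate 4 stood highest. On the log2 scale the level was -3.70 ± 0.25 in WT and -4.54 ± 0.22 in KO (SD, n = 4), a difference of -0.84. The probe was well above background on 4 WT arrays but on 1 KO array, replicate 1, so it passed the filter through WT alone and its KO level is uncertain. Under a normexp correction, which started from median signals, modelled the background and added an offset of 50, the difference was -0.24. These changes were made together, and the part of each in the smaller difference was not tested.

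**Figure D2:**
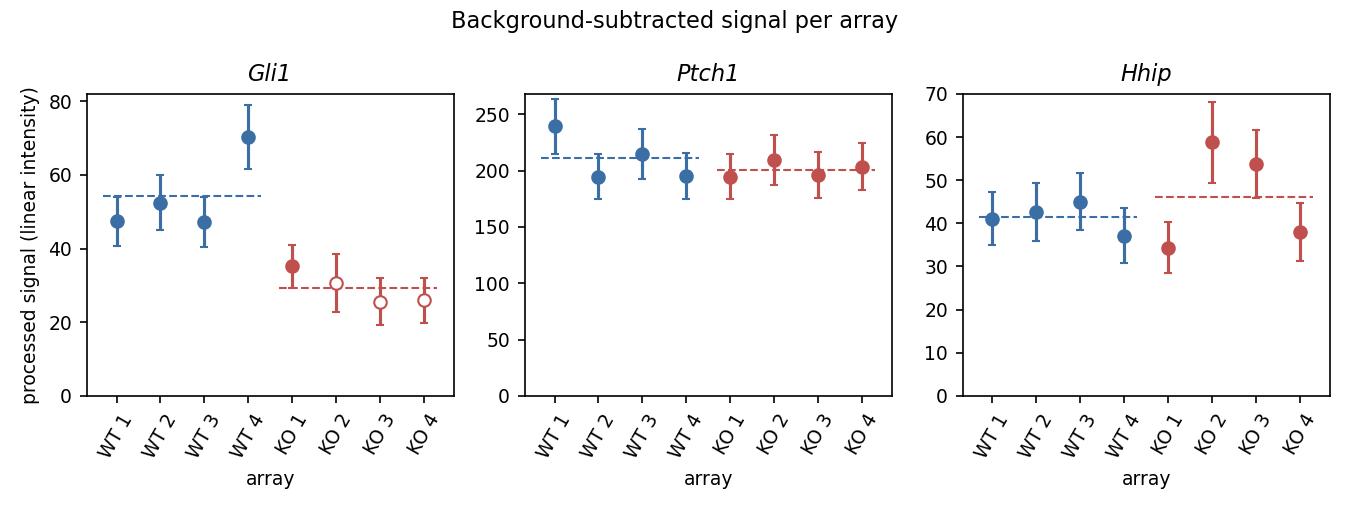
Processed signal (linear intensity) of Gli1, Ptch1 and the brighter Hhip probe in each array, with bars for the error given by the scanner software, dashed lines for the mean of each genotype, filled circles for spots well above background and open circles for others. Gli1 is at 47.2 to 70.4 in WT and 25.6 to 35.1 in KO, Ptch1 is at 194.6 to 239.6 in WT and 194.7 to 209.2 in KO, and Hhip is split within KO.

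Gli2, the main activator upstream of Gli1, did not exceed background clearly in any array. Its signal was 19.3, 21.2, 8.27 and 8.21 in WT and 8.06, 27.4, 20.3 and 20.4 in KO. These values scatter within both genotypes and overlap, so no fold change is given.

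Gli3, which acts mostly as a repressor in the absence of ligand, was detected throughout. Its level was -1.61, -1.75, -1.76 and -1.75 in WT and -1.90, -1.77, -1.66 and -1.56 in KO. The KO values enclosed all WT values. The difference was -0.01 (95% confidence interval -0.19 to 0.17, limma adjusted p = 0.955), and its sign changed with the scaling. In the array where Gli1 was highest in KO, replicate 1, Gli3 was lowest.

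Ptch1 encodes the receptor that holds Smo inactive and is itself a target of the pathway. Its level was -1.48, -1.88, -1.69 and -1.85 in WT and -1.75, -1.82, -1.70 and -1.73 in KO. The KO arrays lay close together inside the WT range. The difference was -0.02 (95% confidence interval -0.22 to 0.18, limma adjusted p = 0.893), and the KO signal was 98.3% of WT. Small changes of Ptch1 in either direction, within this interval, are not excluded by these 4 arrays per genotype. Because the Gli1 difference chose the set, the 2 differences are set side by side without a test between them.

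Hhip encodes a membrane protein that binds and sequesters the ligands, and it too is induced by the pathway. Its brighter probe had a signal of 41.1, 42.7, 45.0 and 37.1 in WT and 34.4, 58.8, 53.7 and 37.9 in KO. All 8 spots were well above background, and the KO arrays were split, with replicates 2 and 3 above every WT array and replicate 1 below every WT array. The difference was 0.16 (95% confidence interval -0.20 to 0.53, limma adjusted p = 0.577). It was -0.0049 under normexp, 0.05 without KO replicate 3 and 0.28 without KO replicate 1. The dimmer Hhip probe was at background everywhere, with WT signals from 4.42 to 5.14 and KO signals from 4.58 to 6.79, and is given no fold change.

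Because Ptch1 and Hhip are the classical targets of Gli factors, the bases around their starts are shown. RefSeq promoter windows (GRCm38.p6, 250 bases before to 50 after the start) were at hand for 7 of the 9 genes, and not for Gli1 and Boc. The Gli consensus TGGGTGGTC, or its reverse complement GACCACCCA, stood in 0 of these 7 windows and in 0.253% of all 32851 promoter windows. Its inner letters GGGTGG, or CCACCC on the other strand, which are part of the longer motif, stood in the windows of 4 genes (Gli2, Gli3, Hhip and Smo) and in 31.5% of all windows. Capitals mark a match to these inner letters, of which Hhip has 1 and Ptch1 none. The Ptch1 window is chr13:63565686-63565985 and the Hhip window chr8:80057959-80058258, both on the minus strand.
Ptch1: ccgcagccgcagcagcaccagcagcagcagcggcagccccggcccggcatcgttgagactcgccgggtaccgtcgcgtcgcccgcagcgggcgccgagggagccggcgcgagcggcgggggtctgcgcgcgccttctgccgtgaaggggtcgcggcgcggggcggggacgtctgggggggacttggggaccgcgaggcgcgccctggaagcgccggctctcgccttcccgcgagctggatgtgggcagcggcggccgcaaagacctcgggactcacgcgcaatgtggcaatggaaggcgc
Hhip: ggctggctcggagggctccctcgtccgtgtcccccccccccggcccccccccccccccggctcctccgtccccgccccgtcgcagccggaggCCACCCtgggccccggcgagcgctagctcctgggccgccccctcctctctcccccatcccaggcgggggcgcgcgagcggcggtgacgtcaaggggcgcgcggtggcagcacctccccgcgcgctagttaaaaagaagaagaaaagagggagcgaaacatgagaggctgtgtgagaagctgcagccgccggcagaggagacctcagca
These windows are rich in G and C, at 76.3% for Ptch1 and 73.7% for Hhip, where the median of all windows is 52.7%. A match is a string of letters and not a measured binding site, and targets can also be bound outside these windows.

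Of the co-receptors, Boc was higher in every KO array than in any WT array. Its level was -2.18, -2.29, -2.46 and -2.14 in WT and -2.06, -1.996, -1.94 and -1.98 in KO. The genotypes did not overlap, as was the case for 17.5% of all tested probes, 6.05% with KO higher. The difference was 0.27 (SE 0.07, 95% confidence interval 0.11 to 0.44), a KO signal of 121% of WT, and it was not called (limma adjusted p = 0.0655). Among the alternatives, a trend with robust eBayes and array weights brought it past the threshold (limma adjusted p = 0.0477 and 0.0387, from a range of 0.0387 to 0.155).

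Cdon, the relative of Boc, was measured by 2 probes, and both had a lower mean in KO. The brighter probe had levels of 2.14, 2.03, 2.04 and 2.13 in WT and 2.04, 1.97, 1.95 and 1.88 in KO. KO replicate 1 fell within the WT range and the other 3 KO arrays lay below it. The difference was -0.13 (95% confidence interval -0.24 to -0.02, limma adjusted p = 0.156). The dimmer probe differed by -0.11 (95% confidence interval -0.33 to 0.10, limma adjusted p = 0.494), with WT levels from -2.17 to -1.80 and KO levels from -2.31 to -2.02.

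Smo, the transducer of the signal, was measured by 2 probes. Its brighter probe had levels of 1.76, 1.85, 1.84 and 1.90 in WT and 1.86, 1.83, 1.87 and 1.88 in KO. All KO arrays lay inside the WT range. The difference was 0.02 (95% confidence interval -0.07 to 0.11, limma adjusted p = 0.791), the narrowest interval of the 10 tested probes. The other Smo probe differed by 0.08 (95% confidence interval -0.18 to 0.34, limma adjusted p = 0.696), and its WT arrays ran from 0.68 in replicate 4 to 1.28 in replicate 1.

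Sufu encodes the cytoplasmic protein that restrains the Gli factors. Its brighter probe had levels of -3.60, -3.58, -3.32 and -3.56 in WT and -3.82, -3.87, -3.33 and -3.57 in KO. In KO, replicates 1 and 2 lay below every WT array and replicates 3 and 4 lay among them. The difference was -0.13 (95% confidence interval -0.42 to 0.15, limma adjusted p = 0.557), and it was -0.02 under normexp and -0.24 without KO replicate 3. Of the 8 spots of the dimmer Sufu probe, 1 exceeded background clearly, in WT replicate 4. Its signals were 19.1 to 23.8 in WT and 9.72 to 18.0 in KO. The lowest signal of any spot well above background was 18.1 to 28.1 per array, and 28.1 in KO replicate 2, where this probe was at 9.72. The genotypes did not overlap, but the probe failed the filter and is given no fold change.

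The other genes of the pathway were taken by role as a list of 58 genes, of which 52 were tested. By gene, 3.97% of the 14940 tested genes with a symbol had a called probe, 1.77% lower and 2.2% higher. In the list, limma called 0 genes higher and 1 lower (Dyrk2), and 15 of its 76 probes detected in all 8 arrays, from 12 genes, had an unadjusted p under 0.05, beside the 23.8% of all tested probes. On the brightest tested probe of each gene, 25 differences were above 0 and 27 below, with a median of -0.01 beside -0.04 over all tested probes. The 27 include Gpr161, which passed the filter through WT alone. At an adjusted p under 0.05 without a minimum fold, 4 genes were lower and 0 higher, where 3.91% of tested genes were lower and 3.63% higher by that rule.

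**Figure D3:**
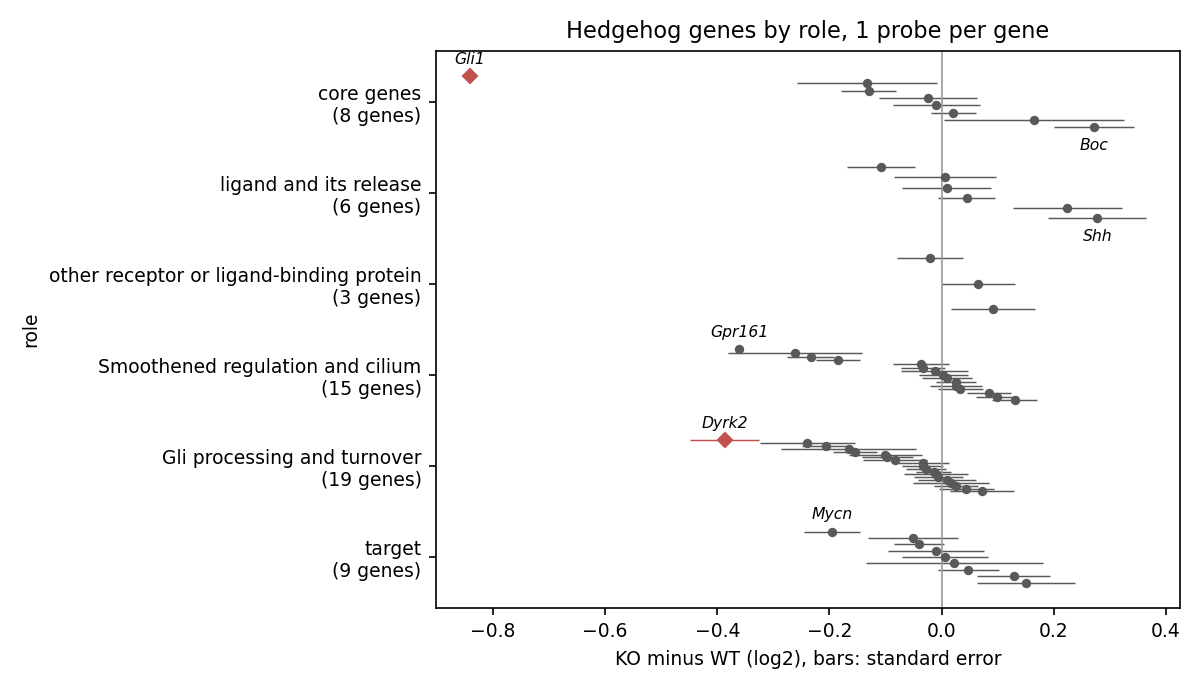
KO minus WT difference (log2) on the brightest tested probe of each gene, with bars for the standard error (none for Gli1 and Gpr161, which passed the filter through WT alone), for the 8 tested genes of the set (core genes) and the 52 other Hedgehog genes by role. Diamonds mark called genes, which are Gli1 at -0.84, chosen for this value, and Dyrk2 at -0.39, and most other points lie within 0.2 of 0.

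Of the ligands, Sonic hedgehog (Shh) had a dim probe that was detected in every array. Its level was -4.18, -4.04, -4.12 and -4.28 in WT and -4.10, -3.86, -3.82 and -3.73 in KO. Replicates 2 to 4 of KO lay above every WT array and replicate 1 among them. The difference was 0.28 (95% confidence interval 0.08 to 0.48, limma adjusted p = 0.0998) and was not called. Without KO replicate 1 it was 0.35 and called (limma adjusted p = 0.035), under normexp it was 0.12, and with outlier spots kept 0.31. No other alternative called it, and over all of them the limma adjusted p ran from 0.035 to 0.21. Desert hedgehog (Dhh) differed by 0.04 (95% confidence interval -0.07 to 0.16, limma adjusted p = 0.632), and Indian hedgehog (Ihh) was not well above background on any array. In the group of ligands and proteins for their release, 6 of 8 genes were tested and limma called 0, with 2 at an unadjusted p under 0.05.

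Among other receptors, Gas1, a further co-receptor, had 3 probes with differences of -0.02, -0.17 and -0.11, and 0 were called. For Smo regulation and the cilium, all 15 genes were tested and limma called 0, with 4 at an unadjusted p under 0.05 among those detected in all 8 arrays. Gpr161, a ciliary receptor that restrains the pathway, resembled Gli1 in detection, with 4 WT arrays and 1 KO array well above background. Its difference was -0.36, and -0.03 under normexp. It passed the filter through WT alone, so no interval or p is given. Iqce, which anchors the Evc complex at the base of the cilium, differed by -0.23 (limma adjusted p = 0.0244), and the ciliary GTPase Arl13b by -0.18 (limma adjusted p = 0.0395), both short of the minimum fold. Under normexp the Iqce difference was -0.27 and was called. The other Arl13b probe differed by -0.17.

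In Gli processing and turnover, all 19 genes were tested and 14 had a negative difference, where 62.0% of all tested probes were lower in KO. Dyrk2, a kinase that phosphorylates Gli proteins, fell from 0.36, 0.31, 0.29 and 0.32 in WT to -0.06, -0.23, 0.05 and -0.02 in KO. No KO array reached the WT range, as in the 11.4% of all tested probes that lay lower in KO without overlap. The difference was -0.39 (SE 0.06, 95% confidence interval -0.53 to -0.25, limma adjusted p = 0.0176) and was -0.34 under normexp. The call was lost without WT replicate 1 or WT replicate 2 (limma adjusted p = 0.0511 and 0.060), with the replicate block (0.0575) and with no filter (0.0636), where the difference stayed between -0.37 and -0.39. It also missed a minimum fold of 1.5. Stk36, the mammalian Fused kinase, differed by -0.21 (limma adjusted p = 0.0386), short of the minimum fold, and its dimmer probe by -0.18. Kif7, the kinesin that organises Gli proteins at the tip of the cilium, differed by -0.17 (95% confidence interval -0.44 to 0.11, limma adjusted p = 0.444).

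Among 12 targets, 9 were tested and limma called 0, with 1 (Mycn) at an unadjusted p under 0.05. Mycn, a proliferation gene induced by Shh in neural progenitors, had levels of 0.58, 0.65, 0.51 and 0.66 in WT and 0.46, 0.45, 0.37 and 0.33 in KO. The genotypes did not overlap, as in the 11.4% of all tested probes that lay lower in KO. The difference was -0.20 (95% confidence interval -0.31 to -0.08, limma adjusted p = 0.0619). The adjusted p was 0.0228 with a trend and robust eBayes and 0.0447 with array weights, in both cases short of the minimum fold. Cyclin D1 (Ccnd1), another target in dividing cells, differed by 0.05 (95% confidence interval -0.08 to 0.17, limma adjusted p = 0.635).

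The tissue was checked with marker genes of retinal and other cell types. In this bulk RNA, fewer cells of a type and less RNA per cell cannot be told apart. All 8 rod markers had negative differences (3 called), with a summed level, relative to the 75th percentile, from 1198 to 1243 in WT and from 1017 to 1064 in KO. All 6 cone markers were positive (2 called), with sums from 179 to 184 in WT and from 205 to 213 in KO. All 6 microglia markers were positive as well (2 called), with sums from 7.52 to 8.07 in WT and from 9.21 to 9.33 in KO. For Müller glia, 7 of 8 differences were positive (1 called), and the summed level was 141 to 146 in WT and 158 to 165 in KO. For astrocytes, 6 of 7 were positive (0 called by limma, 4 at an unadjusted p under 0.05), with sums of 8.45 to 9.70 and 10.1 to 10.3. For pericytes and fibroblasts, 5 of 7 tested were positive (0 called, 1 at an unadjusted p under 0.05), with sums of 6.53 to 7.25 and 6.37 to 7.0, and Lum was not well above background on any array. Endothelial markers had negative differences in 6 of 6 (0 called, 4 at an unadjusted p under 0.05), with sums from 18.9 to 19.7 in WT and from 16.9 to 18.5 in KO. Ganglion cell markers, from the cells that make Shh, were positive in 6 of 8 (0 called, 2 at an unadjusted p under 0.05), with sums of 159.8 to 161.8 and 162.6 to 170.3. For amacrine and horizontal cells, 4 of 6 were positive (0 called, 3 at an unadjusted p under 0.05), with sums from 80.5 to 83.2 in WT and from 88.1 to 90.9 in KO. The sums overlapped for bipolar cells (161.9 to 187.4 and 170.8 to 185.8), retinal pigment epithelium (12.65 to 16.5 and 12.98 to 16.4) and lens (0.353 to 0.485 and 0.318 to 0.465), with 0 called and 1 at an unadjusted p under 0.05 in each. These counts stand beside 2.92% called, 23.8% at an unadjusted p under 0.05 and 62.0% lower in KO over all tested probes. The part of these cell types in the values of Gli1, Boc and Shh was not tested.

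The likeness of other probes to Gli1 is a description that rests on the values that chose the set, and 3 of the 4 KO spots of Gli1 were not well above background, with signals of 25.6 to 30.6 and scanner errors of 6.05 to 7.84. The probes most like the Gli1 probe over the 8 arrays were sought among the 19678 tested probes with a symbol. Pearson's r was 0.990 for Fam229b, 0.989 for Rabl3, 0.988 for Pars2, 0.986 for Rtel1 and 0.984 for Mtg1. These 5 differed by -0.15 to -0.26 between genotypes. Over all such probes the median r was 0.14, and 478 had an r over 0.9. With the genotype means subtracted, the highest r was 0.985 for 5530601H04Rik, 0.976 for Fam229b, 0.973 for Fgg, 0.972 for Abitram and 0.968 for Krtap5-4. By that measure the median r was -0.0019, and 75 of the 19678 probes had an r over 0.9. Fgg had an r of -0.21 over the 8 arrays and a difference of 0.47. Within the set, the brighter Cdon probe had the highest r (0.88 over the 8 arrays and 0.68 with the genotype means subtracted). Boc had the lowest r over the 8 arrays (-0.68), but with the genotype means subtracted its r was 0.28 and Gli3 had the lowest (-0.63). By these measures in the same order, r was -0.08 and -0.40 for Ptch1 and -0.54 and -0.57 for the brighter Hhip probe. These are descriptions over 8 arrays of 1 slide, 4 of each genotype, and no p is attached to them.

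**Figure D4:**
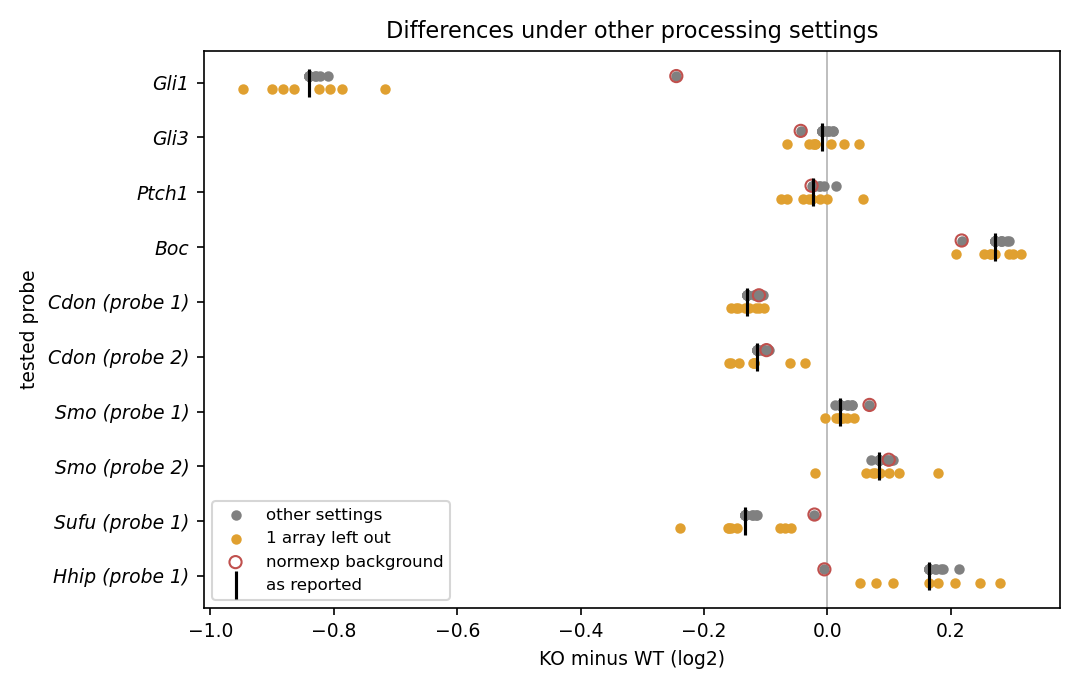
KO minus WT difference (log2) of the 10 tested probes as reported (black lines), under other processing settings (grey, with normexp background correction ringed) and with 1 array left out (orange). Gli1, whose difference chose the set, moves from -0.84 to -0.24 under normexp, and nothing about its stability is read from this. Boc, whose genotypes do not overlap, stays above 0, which leaving out 1 array could not change. The differences of Gli3, Ptch1, Smo and the brighter Hhip probe cross 0.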

How the data were processed

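The authors hybridised 8 Cy3-labelled samples to SurePrint G3 mouse arrays and quantified them with Feature Extraction 10.7.1.1. The deposited files hold intensity on a linear scale, background-subtracted and unscaled between arrays. The deposited series table holds the authors' log2 values after a 75th percentile shift and served as an alternative. It left 0 per-sample columns unused. Here, log2 intensity was centred on the 75th percentile of the 59305 spots that are not controls, array by array, outlier spots were left out and repeated spots averaged. Genotypes were compared with limma 3.58.1 (R 4.3.3) and Benjamini-Hochberg adjustment over all tested probes, tested on simulated data. Symbols came from RefSeq by accession (47.4% of probes). The table's build differs from that of the design, so no probe coordinates are given. Genes named are the 9 pathway genes, called genes of the role list and a fixed few of it, and the 5 probes most like Gli1 by Pearson's r, with and without the genotype means. Genes, lists and rules were chosen with earlier results of these data known, and Iqce, Stk36 and Arl13b are named after their adjusted p was seen. The number of arrays limits the precision. Alternatives were other scalings, normexp, filters, tests, thresholds, a replicate block, outlier spots and leaving out each array. Normexp used median signals and an offset of 50. A slide block could not be fitted with 1 slide. 1 gene of the named few is not reported here.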

Additional observations from a re-analysis of the deposited data

Results flagged for a closer look

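In the brighter probe of Sufu, WT replicate 3 stood at -3.32, above the other WT arrays at -3.60 to -3.56, and in Gli3, WT replicate 1 stood at -1.61, above the other WT arrays at -1.76 to -1.75. Both were single arrays far from the other 3 of their genotype by Dixon's criterion at 95%, which chance meets in about 1 of 20 groups, and 42 groups were examined. Without these arrays the difference was -0.07 for Sufu and 0.03 for Gli3, and neither was called.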

How the results depend on the processing

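Of 22 alternatives, 21 gave a Gli1 difference, from -0.95 to -0.24 (-0.95 to -0.72 with 1 array left out). Because this value chose the set, nothing about its stability is read from this range or from the counts of calls, which hold Gli1. The number of called probes of the set was 0 under normexp, no filter, the filter on all 8 arrays (where Gli1 was not tested) and the replicate block, 2 with trend and robust eBayes and 2 with array weights, and 0 to 1 with 1 array left out. For the 58 other genes the count was 2 under normexp, 4 without a minimum fold, 0 with no filter, 0 with a fold over 1.5, 0 with the replicate block, and 0 to 2 with 1 array left out. All called probes numbered 246 with no filter, 1870 without a minimum fold, 139 with a fold over 1.5, 395 with the replicate block, and 369 (without WT replicate 2) to 1184 (without KO replicate 1) with 1 array left out. Same-numbered arrays deviated together with r of 0.249, 0.069, 0.037 and 0.112. Each was the highest r of its KO array with any WT array. Arrays with different numbers had r from -0.202 to 0.06. The labels give the numbers but no pairing, so the main fit left the numbers out. Whether the numbers pair the samples was not tested, and the main p-values do not allow for it. Signs turned for Gli3 (0.0011 with a median shift, 0.0097 with the percentile of detected probes, 0.0027 with the authors' values, 0.0098 with array weights), Ptch1 (0.014 with array weights) and Hhip (-0.0049 under normexp). With 1 array left out the ranges were -0.0652 to 0.0504 for Gli3, -0.0752 to 0.0574 for Ptch1, -0.0042 to 0.0424 and -0.02 to 0.18 for the Smo probes, and -0.0509 to 0.0174 for Gas1. The cause of these shifts was not tested. Dim signals near background limit what can be said of Gli1, Gli2, Sufu and Hhip.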
